A study of Mus musculus with 6 samples.

Results

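The genes described here are those that write, copy, erase and guide DNA methylation. They comprise the DNA methyltransferases Dnmt1, Dnmt3a and Dnmt3b, their cofactor Dnmt3l, the TET dioxygenases Tet1, Tet2 and Tet3, the CXXC zinc finger genes Cxxc4 and Cxxc5, and Uhrf1, the partner of Dnmt1. The genes were picked by symbol, and all 10 were found among the 22320 genes of the authors' deposited table. Cxxc4 and Dnmt3l were already known to be low in this comparison when the set was drawn up. All values below, p-values included, are therefore a description of the set and are no independent test of it.

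The mRNA of whole mouse testes was sequenced at postnatal day 1.5. The Arid4bSCKO group carried Arid4b-/Flox and Amh-cre, and the control group carried Arid4b+/Flox and Amh-cre. Both groups were hybrids of C57BL6/J and 129/SvEv and shared the floxed allele and the Cre transgene. The Amh promoter is active in Sertoli cells, so Cre targets the floxed copy there in both groups. Control Sertoli cells are thus left with a single working copy of Arid4b. The null allele leaves the other cells of Arid4bSCKO testes with a single working copy too. ARID4B is a subunit of the Sin3 histone deacetylase corepressor and binds the retinoblastoma protein. Each group had 3 pools of 4 testes, and the labels do not say whether pools came from separate litters. The deposited table gives 1 mean per group, so values of single pools are not shown.

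DNA methylation is a methyl group on cytosine, mostly in CpG dinucleotides. DNMT1 copies it to the new strand at replication and is brought there by UHRF1, which recognises DNA methylated on a single strand. DNMT3A and DNMT3B add methylation to new sites. DNMT3L has no catalytic activity of its own, binds DNMT3A, and is needed for the methylation that male mouse germ cells acquire around birth. TET enzymes oxidise methylcytosine, the first step of its active removal. The CXXC domain is a zinc finger that binds unmethylated CpG. TET1 and TET3 contain such a finger and TET2 does not. CXXC4, encoded next to Tet2, carries the finger in a separate protein that binds TET2, and it also binds Dishevelled, a transducer of Wnt signals. CXXC5 is its closest relative.

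Stretches of DNA before transcription starts are shown because of the members they belong to: Cxxc4, its neighbour Tet2, Dnmt3l with the largest difference, and Uhrf1. They are RefSeq promoter windows (GRCm38.p6, the assembly of mm10), each the 250 bases before an annotated start, read on the gene's strand. CpG dinucleotides are in capitals in the Cxxc4, Tet2 and Dnmt3l windows. The Cxxc4 window is chr3:134236245-134236494 on the plus strand, the Tet2 window chr3:133544391-133544640 on the minus strand, and the Dnmt3l window, before the second of its 3 starts, chr10:78049592-78049841 on the plus strand. In the Uhrf1 window, before the second of 2 starts (chr17:56304063-56304312, plus strand), capitals mark letters of the kind bound by E2F factors.
Cxxc4: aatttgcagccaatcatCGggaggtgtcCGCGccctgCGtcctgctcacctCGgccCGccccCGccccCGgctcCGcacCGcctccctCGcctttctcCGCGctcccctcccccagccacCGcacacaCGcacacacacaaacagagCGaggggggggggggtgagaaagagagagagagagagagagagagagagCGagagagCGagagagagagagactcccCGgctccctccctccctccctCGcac
Tet2: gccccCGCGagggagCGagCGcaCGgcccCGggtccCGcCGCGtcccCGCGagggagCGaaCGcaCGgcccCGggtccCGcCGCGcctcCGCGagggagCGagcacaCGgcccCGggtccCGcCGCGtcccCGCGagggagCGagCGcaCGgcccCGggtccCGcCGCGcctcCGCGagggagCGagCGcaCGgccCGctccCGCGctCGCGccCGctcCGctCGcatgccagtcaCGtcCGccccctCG
Dnmt3l: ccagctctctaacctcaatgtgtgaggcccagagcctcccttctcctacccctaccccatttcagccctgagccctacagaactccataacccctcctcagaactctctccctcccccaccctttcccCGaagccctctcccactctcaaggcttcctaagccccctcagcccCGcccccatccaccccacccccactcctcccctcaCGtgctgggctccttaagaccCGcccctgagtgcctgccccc
Uhrf1: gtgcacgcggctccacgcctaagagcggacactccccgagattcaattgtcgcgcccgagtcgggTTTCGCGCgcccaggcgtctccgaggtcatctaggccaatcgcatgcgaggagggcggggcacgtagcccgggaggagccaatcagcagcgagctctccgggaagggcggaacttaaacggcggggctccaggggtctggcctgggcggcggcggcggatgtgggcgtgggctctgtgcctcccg

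The windows differ in CpG content. Cxxc4 had 20 CpG dinucleotides, more than 82.1% of the 32851 RefSeq windows of the same length, and Tet2 had 51, more than 99.9% of them. The median window had 6. The 3 Dnmt3l windows had 5, 4 and 3, and the 3 windows of Dnmt3a had 38, 40 and 15. Windows were found for 9 of the 10 genes, and Cxxc5 is named only. E2F factors act downstream of the retinoblastoma protein, so the letters TTTCCCGC, TTTCGCGC, TTTGCCGC and TTTGGCGC were searched on both strands, with overlapping matches counted once. They were present in 1 window each of Dnmt1 and Uhrf1, in no other of the 16 windows of the members, and in 1.86% of all windows. Each of these sequences contains a CpG, and the matching Dnmt1 and Uhrf1 windows were rich in CpG, with 26 and 30. The share among windows of like CpG content was not computed. A match is not evidence of binding.

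Levels are the authors' mean of log2(normalized count + 1) over the pools of a group. Differences are the Arid4bSCKO mean less the control mean in log2 units, and each 95% interval follows from the p-value the authors deposited. The targeted gene, Arid4b, averaged 8.68 in Arid4bSCKO and 10.19 in control testes, a difference of -1.51 (95% interval -1.82 to -1.21), or 35.1% of control. Its FDR in the authors' deposited table was 0.0535. Defining markers of the tissue were present, with all 16 Sertoli cell markers at a mean level of 8.93 or more in both groups. The worth of 1 read was inferred from the commonest values of genes that appeared to be read in 1 pool only. It came to 1.28 to 1.45 normalized counts in Arid4bSCKO libraries and 1.20 to 1.25 in control libraries. On that estimate every member lay far above single reads.

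All 10 genes had a lower mean in Arid4bSCKO than in control testes. Differences below 0 made up 52.7% of all genes of the table, and 54.2% of the 19095 genes at a mean log2 level of 1 or more. The median difference of the members was -0.44, against -0.04 for those 19095 genes. Cxxc4 was the single member with an FDR below 0.05 in the authors' deposited table, a threshold that 0.260% of the 22320 genes passed in either direction and 0.121% as lower. There, 5 members had an unadjusted p below 0.05 (Cxxc4, Tet1, Dnmt3b, Uhrf1 and Dnmt3l), as did 11.1% of all genes in the lower direction. A moderated limma test, which borrows strength across genes when it estimates the spread, called 5 of 10 as lower (Cxxc4, Uhrf1, Tet1, Cxxc5 and Dnmt3l), against 6.46% of 19095 genes. Without its trend on level and robust fitting it called Cxxc4 alone, against 0.382% of genes as lower. Of all genes, 27 passed the deposited FDR as lower and 31 as higher, of which 11 and 26 were at level 1 or more. The deposited adjustment thus included genes near 0. Readjusting the deposited p-values over genes at level 1 or more left no member (0), with Cxxc4 at an adjusted p of 0.0593.

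**Figure D1:**
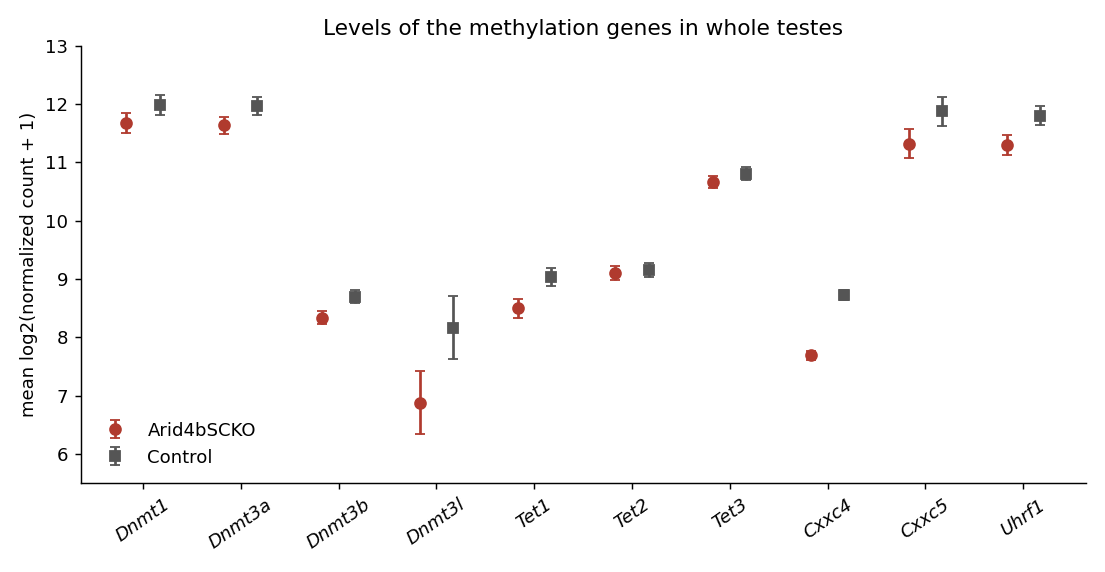
Mean log2(normalized count + 1) of each gene in Arid4bSCKO (circles) and control testes (squares). Bars are the SD between pools, common to both groups, that the deposited p-value implies. Cxxc4 stands at 7.69 in Arid4bSCKO and 8.73 in control testes with bars of 0.08, whereas the bars of Dnmt3l, at 0.54, are the longest.

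Cxxc4 (chromosome 3, 134236495 to 134262089, plus strand, mm10) fell in Arid4bSCKO testes. Its mean log2 level was 7.69 in Arid4bSCKO and 8.73 in control testes, or 206 normalized counts in Arid4bSCKO and 424 in control testes. The difference was -1.04 (95% interval -1.23 to -0.85), which placed Arid4bSCKO at 48.6% of control. The authors' deposited table gave it an FDR of 0.0432, and the ratio of group medians there was -1.06 log2 units. The implied SD between pools, 0.08 log2 units, was below the median of 0.16 for the 3760 genes within 1 log2 unit of its level. Of those genes 1.20% had a lower difference. Its adjusted p in the moderated limma test was 4.65e-04, and 0.0223 without trend and robust fitting. Cxxc4 overlaps the antisense gene Gm26691 for 4158 bases in GENCODE M21. Whether reads were counted by strand is not given in the sources used here.

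Cxxc5 (chromosome 18, 35829818 to 35861688, plus strand) had the next largest difference of group means outside the methyltransferase family, close to Tet1 at -0.54. The deposited ratio of group medians gave the reverse order, at -0.44 for Cxxc5 and -0.50 for Tet1. Cxxc5 averaged 11.32 in Arid4bSCKO and 11.87 in control testes, a difference of -0.55 (95% interval -1.11 to 0.00). That is 68.2% of control. The interval just reached 0, and the authors' deposited table gave an FDR of 0.242. The moderated limma test gave an adjusted p of 0.0301.

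Tet2 and the other genes beside Cxxc4 had smaller differences. Tet2 (chromosome 3, 133463677 to 133544390, minus strand) ends 692 kb before Cxxc4 and was its nearest upstream gene with a RefSeq accession in the table. It averaged 9.10 in Arid4bSCKO and 9.16 in control testes, a difference of -0.06 (95% interval -0.34 to 0.21). Its interval did not overlap that of Cxxc4. Further upstream, Ppa2 was at -0.03 and Ints12 at 0.08, while Arhgef38 was listed at 0 in control testes. The nearest gene downstream, Tacr3, was at 0.23 (95% interval -0.04 to 0.49) and lay 567 kb away. Cenpe, Bdh2 and Slc9b2 were at -0.08, 0.30 and 0.14. None of these 8 neighbours had an FDR below 0.05 in the authors' deposited table, against 0.260% of all genes. None passed the moderated limma test, which called 6.46% of genes as lower and 7.37% as higher and for which Arhgef38 was too low. An unadjusted p below 0.05 was reached by 0 of 8, against 20.9% of all genes.

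**Figure D2:**
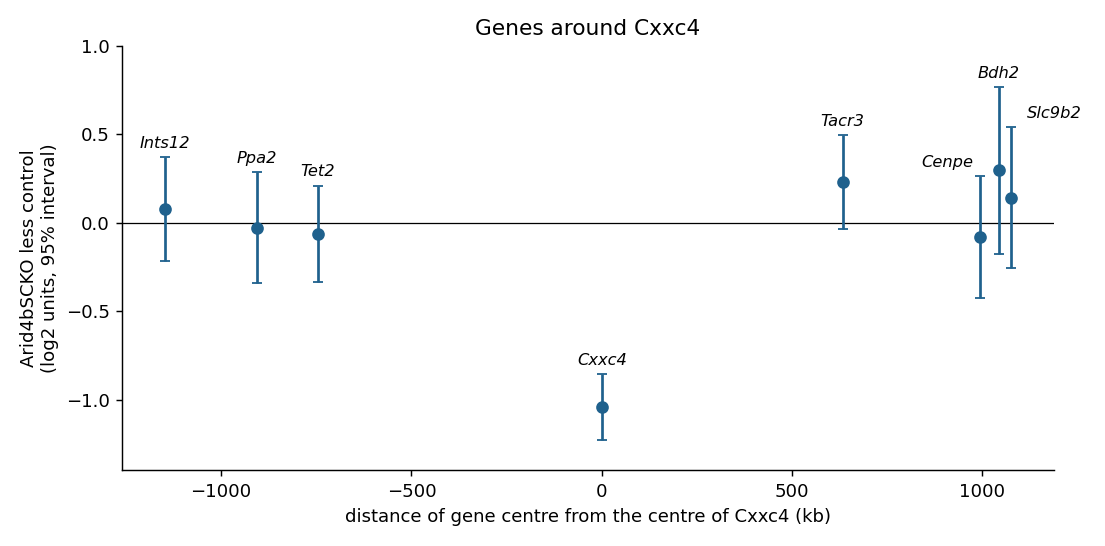
Difference between Arid4bSCKO and control testes (log2 units, bars 95% interval) against the distance of each gene's centre from that of Cxxc4 (kb), without Arhgef38. Cxxc4 stands at -1.04, and the other genes lie between -0.08 and 0.30.

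Of the other TET genes, Tet1 had the larger mean difference. Tet1 (chromosome 10, 62804570 to 62880014, minus strand) averaged 8.49 in Arid4bSCKO and 9.04 in control testes, a difference of -0.54 (95% interval -0.91 to -0.18), or 68.6% of control. Tet3 (chromosome 6, 83362374 to 83456392, minus strand) averaged 10.66 in Arid4bSCKO and 10.80 in control testes, a difference of -0.14 (-0.39 to 0.11). The authors' deposited table gave Tet1, Tet2 and Tet3 an FDR of 0.146, 0.733 and 0.461. The moderated limma test called Tet1 at an adjusted p of 0.0165 but not Tet2 (0.752) or Tet3 (0.352). The interval of Tet1 overlapped those of Tet2 and Tet3, and the difference between the 3 genes was not tested. Tet3 overlaps B230319C09Rik, on the opposite strand, which was at 2.54 in Arid4bSCKO and 2.91 in control testes.

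Dnmt3l, the cofactor of de novo methylation, had the largest difference and the widest interval. It lies on chromosome 10 (78042287 to 78063622, plus strand). Its mean log2 level was 6.88 in Arid4bSCKO and 8.16 in control testes, or 116 normalized counts in Arid4bSCKO and 286 in control testes. The difference was -1.29 (95% interval -2.52 to -0.06), or 41.0% of control, and the FDR that the authors' deposited table gave it was 0.223. The ratio of group medians in the authors' deposited table was larger, at -1.62 log2 units. The implied SD between pools was 0.54 log2 units, against a median of 0.19 for 3036 genes of similar level. The moderated limma test gave an adjusted p of 0.0309, and 0.122 without trend and robust fitting. Dnmt3l overlaps Aire on the opposite strand for 1664 bases, and Aire was low, at 2.79 in Arid4bSCKO and 3.28 in control testes. The table has 1 value for all 3 Dnmt3l starts, so they could not be compared.

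The catalytic de novo enzymes differed less. Dnmt3a (chromosome 12, 3806523 to 3914443, plus strand) averaged 11.64 in Arid4bSCKO and 11.96 in control testes, a difference of -0.33 (95% interval -0.68 to 0.02). Dnmt3b (chromosome 2, 153649449 to 153687730, plus strand) averaged 8.34 in Arid4bSCKO and 8.70 in control testes, a difference of -0.36 (-0.61 to -0.12). The authors' deposited table gave an FDR of 0.256 for Dnmt3a and 0.148 for Dnmt3b. Neither passed the moderated limma test, with adjusted p-values of 0.0556 and 0.0635. These differences correspond to 79.6% and 77.7% of control.

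Of the maintenance pair, Uhrf1 had the larger mean difference. Uhrf1 (chromosome 17, 56303337 to 56323486, plus strand) averaged 11.30 in Arid4bSCKO and 11.80 in control testes, a difference of -0.51 (95% interval -0.89 to -0.13), or 70.4% of control. Dnmt1 (chromosome 9, 20907206 to 20959888, minus strand) averaged 11.68 in Arid4bSCKO and 11.99 in control testes, a difference of -0.31 (-0.70 to 0.08), or 80.7% of control. Their intervals overlapped, and the difference between them was not tested. The authors' deposited table gave an FDR of 0.166 for Uhrf1 and 0.326 for Dnmt1, and the moderated limma test called Uhrf1 (adjusted p = 0.0115) but not Dnmt1 (adjusted p = 0.0868).

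**Figure D3:**
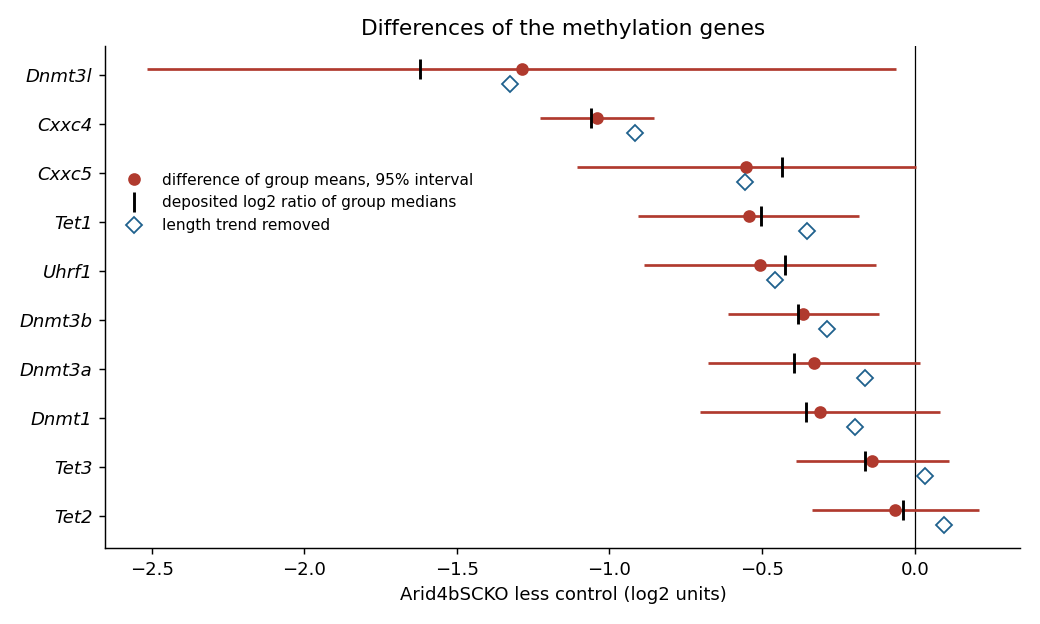
Difference of each gene between Arid4bSCKO and control testes in log2 units. Circles and lines are the difference of group means with its 95% interval, ticks the deposited ratio of group medians, and open diamonds the difference after a trend over transcript length was removed. The circles run from -1.29 for Dnmt3l to -0.06 for Tet2, and the diamonds of Tet2 and Tet3 lie above 0.

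Set among genes within 1 log2 unit of their own level, the members spread widely. The share of such genes with a still lower difference was 1.12% for Dnmt3l, 2.63% for Cxxc5, 3.35% for Uhrf1 and 4.87% for Tet1. It was 9.95% for Dnmt3a, 11.9% for Dnmt1 and 12.1% for Dnmt3b. Tet3 and Tet2 lay in the body of the distribution, at 30.0% and 42.2%.

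The genes were ordered by level per kilobase of the longest GENCODE M21 transcript. Which transcripts are made in these testes was not examined, so the order carries an error of length that the SDs below leave out. Cxxc5 was highest, at 1112.5 normalized counts per kilobase in Arid4bSCKO and 1631 in control testes. Uhrf1 followed with 702 in Arid4bSCKO and 997 in control testes, then Dnmt1 with 560.3 in Arid4bSCKO and 694 in control testes. Dnmt3a had 328 in Arid4bSCKO and 412 in control testes. Tet3 stood at 149 per kilobase in Arid4bSCKO and 164 in control testes. Dnmt3l stood at 63.9 in Arid4bSCKO and 157 in control testes, and Dnmt3b at 74.5 in Arid4bSCKO and 96.0 in control testes. Cxxc4 had 32.5 in Arid4bSCKO and 67.0 in control testes, and Tet2 had 59.6 in Arid4bSCKO and 62.3 in control testes. Tet1 was lowest, with 25.0 in Arid4bSCKO and 36.5 in control testes. In control testes, Tet3 and Dnmt3l, and likewise Cxxc4 and Tet2, were closer on the log2 scale than the sum of their SDs. In Arid4bSCKO testes Dnmt3l ranked below Dnmt3b, with a gap of 0.22 log2 units that was within the sum of their SDs (0.65), as were the gaps between Dnmt3l and Tet2 and between Uhrf1 and Dnmt1. Cxxc4 ranked below Tet2 in Arid4bSCKO testes, with a gap of 0.88 log2 units against a sum of SDs of 0.20.

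Long transcripts were lower in Arid4bSCKO as a whole, and this touched several members. Genes were split into 4 equal bins by length. In the bin with transcripts of 4617 bases or more, the median difference was -0.14 and 67.8% of genes were lower. In the bin with 2022 bases or fewer, the median was 0.10 and 39.9% were lower. Of the 10 members, 6 were in the longest bin (Dnmt1, Dnmt3a, Tet1, Tet2, Tet3 and Cxxc4), and Dnmt3l was in the shortest. Across 17758 genes, which are not independent, Spearman's rho between difference and length was -0.19. With the trend over length removed, Cxxc4 was at -0.92, Dnmt3l at -1.33, Cxxc5 at -0.56 and Uhrf1 at -0.46. Tet1 moved to -0.35 and left the moderated test (limma adjusted p = 0.0889). Tet2 and Tet3 changed sign, to 0.10 and 0.04, so that 8 of 10 members were lower, against 49.4% of 17758 genes. The limma test then called 4 members as lower, against 4.61% of genes.

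**Figure D4:**
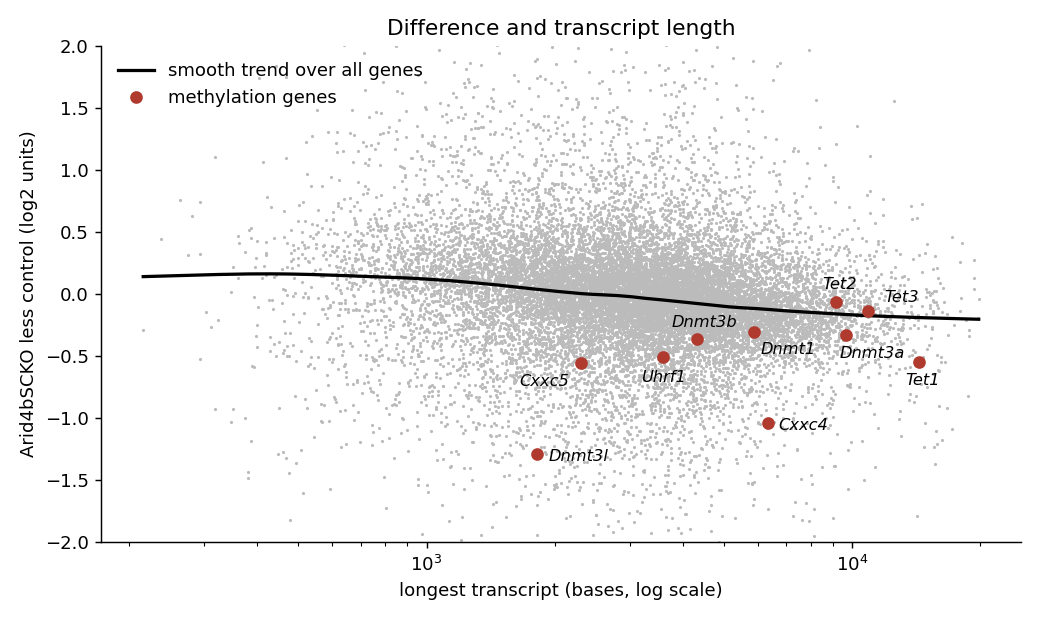
Difference between Arid4bSCKO and control testes (log2 units) against the longest transcript (bases, log axis) for genes at level 1 or more (grey), with the smooth trend (line) and the methylation genes (red). Of 17758 genes with a length, 17559 lie within the axes. Tet2 and Tet3 lie above the trend, and Cxxc4 and Dnmt3l lie farthest below it.

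Genes that work with these enzymes were counted in 7 lists, written with earlier results of these data known. In the authors' deposited table, an FDR below 0.05 was reached by 0 of their 102 distinct members, and 39 had an unadjusted p below 0.05 in either direction, as did 20.9% of all genes. The counts below are calls of the moderated limma test, which called 6.46% of genes lower and 7.37% higher. Without trend and robust fitting it called 4 of the 102, Gadd45a, Gadd45b, Apobec1 and Cdc6. Of 18 partners of maintenance and de novo methylation, the median difference was -0.25, and 7 genes were called as lower and 0 as higher. Cdca7, a cofactor of the remodeller HELLS, was at -0.48 (95% interval -0.70 to -0.25) and Nsd1, a histone methyltransferase gene, at -0.32 (-0.50 to -0.14). After the length trend was removed 4 were called as lower, Cdca7 among them (limma adjusted p = 0.0055), and Nsd1 was not (0.308). Of 20 genes of DNA replication, the process at which DNMT1 and UHRF1 act, the median was -0.37, and 10 were called as lower and 0 as higher. Pcna, called as lower, is counted in both this list and that of the partners, so the lists are not separate. Cdc6, a licensing factor gene, was at -0.87 (-1.16 to -0.59) and the helicase subunit gene Mcm7 at -0.46 (-0.63 to -0.28). These values stand beside those of Uhrf1 and Dnmt1, and the part of replication in their differences was not tested.

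The list for methylation removal, which also holds general repair and stress genes, moved in both directions. Of 23 genes of active demethylation and base excision repair, 1 was called lower and 4 higher, and the median was -0.05. Apobec1, a cytidine deaminase gene, was at 1.98 (95% interval 1.31 to 2.65) and Gadd45b, a stress and growth arrest gene, at 1.59 (1.15 to 2.03). Chosen with their values known, the other calls were Gadd45a at 1.70 (1.12 to 2.28), the repair polymerase gene Polb at 0.40 (0.18 to 0.62) and the uracil glycosylase gene Ung at -0.58 (-1.04 to -0.11). Tdg, the glycosylase that excises oxidised methylcytosine, stood at 0.21 (0.02 to 0.40; chosen with its value known) and not called (limma adjusted p = 0.116). No reader of methylated DNA (0 of 10) and no other CXXC zinc finger gene (0 of 7) was called in either direction by the limma test, and 1 of each list had an unadjusted p below 0.05, against 20.9% of all genes. Zbtb33 was at -0.20 (-0.32 to -0.09), Zbtb4 at 0.17 (-0.01 to 0.35), Kmt2b at -0.21 (-0.41 to -0.01) and Fbxl19 at -0.29 (-0.77 to 0.19). With the length trend removed, Zbtb4 passed the limma test as higher (adjusted p = 0.0395). The median of the other CXXC genes was -0.06, against -1.04 for Cxxc4 and -0.55 for Cxxc5.

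Methyl donor genes, which supply the methyl group, and genes of the Wnt pathway, in which CXXC4 acts through Dishevelled, were counted in the same way. The mean was below control for 12 of 15 donor genes and 9 of 12 Wnt genes, against 54.2% of genes at level 1 or more. Of 15 donor genes, the median was -0.22, and calls were made for 4 as lower and 1 as higher. The folate enzyme genes Mthfd1 and Shmt1 were at -0.70 (95% interval -0.95 to -0.44) and -0.49 (-0.75 to -0.23). Chosen with its value known, the single call as higher was Shmt2, the mitochondrial relative of Shmt1, at 0.54 (0.04 to 1.03). Of 12 Dishevelled and Wnt feedback genes, the median was -0.28, and calls were made for 4 as lower and 0 as higher. Axin1, a scaffold of beta-catenin breakdown, was at -0.27 (-0.39 to -0.15), and Ctnnb1, which encodes beta-catenin, at -0.29 (-0.46 to -0.12). With the length trend taken out, neither passed the moderated limma test (adjusted p = 0.0899 and 0.0888), and 1 gene of the list remained called, Tcf7, at -0.48 (-0.94 to -0.01). Named after their values were seen, Dvl1, Dvl2 and Dvl3 were at 0.20, -0.21 and -0.02, and the Wnt feedback gene Axin2 was at 0.26 (-0.28 to 0.80). None of these 4 was called. Rnf43, a further gene of the list chosen with its value known, was at -0.88 (-1.45 to -0.31). It was called as lower (limma adjusted p = 0.0415), though not after the length trend was removed (0.0590).

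**Figure D5:**
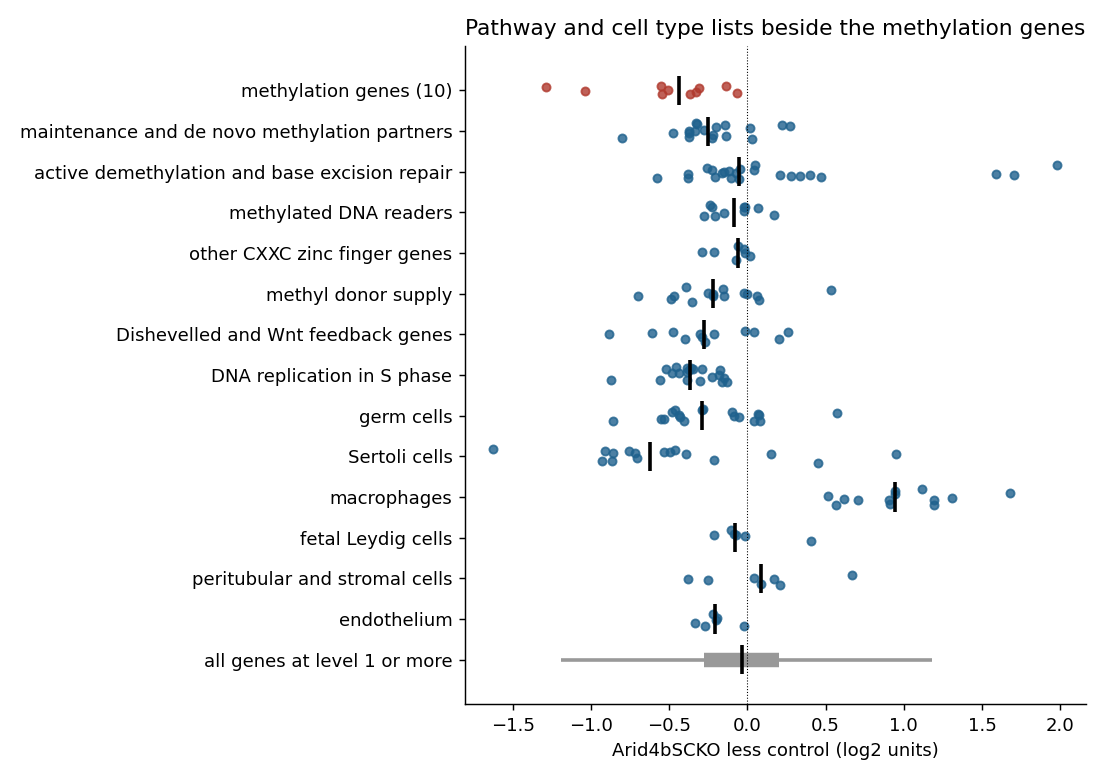
Difference between Arid4bSCKO and control testes (log2 units) for the methylation genes (red), 7 pathway lists and 6 cell type marker lists (blue, 1 point a gene, black line the median). The grey bar and line hold the central 50% and 95% of the 19095 genes at level 1 or more. The median of the methylation genes, -0.44, lies between those of the Sertoli cell (-0.62) and DNA replication (-0.37) lists.

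Markers of 6 cell types of the testis were counted beside these genes. Whole testes were read, so fewer cells of a type and less RNA per cell cannot be told apart. In the authors' deposited table an FDR below 0.05 was reached by 0 of 66 markers, and 27 had an unadjusted p below 0.05 in either direction, against 20.9% of all genes. The moderated limma test called 24 of them, in a test that called 6.46% of genes as lower and 7.37% as higher. Without trend and robust fitting it called 2, C1qa of the macrophage list and Tagln of the stromal list. That setting called 0.382% of genes as lower and 0.859% as higher. Of 18 germ cell markers 13 were lower, against 54.2% of genes at level 1 or more, with differences from -0.86 to 0.57 and a median of -0.29. The moderated limma test called 1 of the 18 as lower, against 6.46% of genes, and 0 as higher, against 7.37%. The call was Dppa4, at -0.86 (95% interval -1.66 to -0.05). The summed level of the list was 12996 normalized counts in Arid4bSCKO and 16136 in control testes. Such sums add back-transformed group means, so genes of high level weigh most in them. Mael and Dazl, at -0.53 (95% interval -1.28 to 0.22) and -0.43 (-0.97 to 0.11), were not called, and Dnmt3l, which is made by germ cells at this age, was at -1.29. Of 16 Sertoli cell markers the median was -0.62, and the moderated limma test called 7 as lower and 2 as higher. None of these 9 calls was made without trend and robust fitting. The summed level was 83528 in Arid4bSCKO and 134675 in control testes. Clu, Inha and Amh weigh most in the control sum, with log2 levels of 15.28, 14.55 and 14.25 in control testes. Inha was at -0.91 (-1.72 to -0.10) and Clu at -0.46 (-0.79 to -0.13). Chosen with their values known, the 2 calls as higher were Cldn11 at 0.95 (0.32 to 1.58) and Krt18 at 0.45 (0.12 to 0.78). Of 13 macrophage markers the moderated limma test called 12 as higher, and 1 without trend and robust fitting, with a median of 0.94 and a summed level of 7538 in Arid4bSCKO and 3377 in control testes. Csf1r was at 0.71 (0.14 to 1.28) and Lyz2 at 1.68 (0.47 to 2.89). The complement gene C1qa, chosen with its value known, was at 1.20 (0.78 to 1.61).

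Markers of the remaining cell types had medians nearer 0, at -0.08 for 6 fetal Leydig cell genes, 0.09 for 7 peritubular and stromal genes and -0.21 for 6 endothelial genes. The moderated limma test called 0, 2 and 0 of them, against 6.46% of genes as lower and 7.37% as higher. An unadjusted p below 0.05 was reached by 0, 2 and 1, against 20.9% of all genes. The stromal calls, named after their values were seen, were Tagln, a smooth muscle gene, at 0.67 (95% interval 0.51 to 0.83) and Nr2f2, a nuclear receptor gene, at -0.38 (-0.72 to -0.03), and Nr2f2 was not called after the length trend was removed (limma adjusted p = 0.0754). Hsd3b1 and Cyp11a1 were at -0.11 and -0.08, Acta2 and Pdgfra at 0.17 and -0.25, and Cdh5 and Pecam1 at -0.33 and -0.02. Of these 6 genes none was called. The part of cell makeup in the differences of the methylation genes was not tested.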

How the data were processed

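RNA was read from 6 samples, 3 pools in each of 2 groups. Per the labels, libraries were poly(A)-selected and kept strand. The submitters' processing notes list STAR 2.4 and mm10. How reads were counted, annotated and scaled was not given in the sources used here. Per the field descriptions, the authors deposited 1 mean of log2 normalized counts per group, a log2 fold change from group medians, and the p-value and FDR of a comparison that assumes equal variance. The deposited FDR was recomputed by the Benjamini-Hochberg method over 22320 genes. Depth per library was not analysed here.

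Standard errors and 95% intervals were derived from the deposited p-value and 4 degrees of freedom. This assumes that the authors' comparison was run on the same log2 values as the group means, which could not be checked. The implied variances of 19095 genes at level 1 or more were shrunk with limma 3.58.1 under R 4.3.3 (squeezeVar with trend and robust fitting; the prior had a median of 7.46 degrees of freedom), and p-values adjusted over those genes. This step was tested on simulated data. The log2(normalized count + 1) scale understates changes of low genes. Longest transcripts came from GENCODE M21 (89.8% of genes matched) and a lowess trend of span 0.3 was removed. Of 18885 genes matched by symbol to RefSeq (GRCm38.p6), the deposited start was 1 base below the RefSeq start for 9937 and equal to it for 709, so deposited starts were read as counted from 0 and raised by 1 base. With no strand stated for counting, overlapping genes are uncertain. P-values reflect pool-to-pool spread only, which may be technical.

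The genes and lists were chosen with earlier results of these data known. Genes named from lists are the 2 with the smallest deposited p (pathways) or highest level (markers), and the 4 nearest genes on each side of Cxxc4, unless stated.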

Additional observations from a re-analysis of the deposited data

How the results depend on the processing

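The count of methylation genes past the threshold depended on the variance estimate, the genes adjusted over and the length trend. It was 1 with the deposited FDR (Cxxc4), and 0 when the deposited p-values were readjusted over genes at level 1 or more or at 5 or more normalized counts. The moderated limma test called 5 with and without the filter on level, and 1 without trend and robust fitting. It called 4 after the length trend was removed, an alternative chosen after seeing the data. The median difference of the members, -0.44, ran from -0.43 to -0.32 under the 4 other scalings or summaries. Of 40 single values, 35 moved by less than 1 SD and 5 by more, all with the length trend removed (Dnmt3a, Tet1, Tet2, Tet3 and Cxxc4). Of these 5, Tet2 and Tet3 changed sign, to 0.097 and 0.035. Of the pathway list genes 0 passed the deposited FDR, 30 the moderated limma test, 4 that test without trend and robust fitting, and 25 after the length trend was removed. For the 66 cell type markers the counts were 0, 24, 2 and 21. The cause was not tested. Leaving out pools was not run, as the table holds group means. No paired analysis was possible because the table holds group means only, although the labels number the pools 1 to 3 in both groups. Genes of few reads carry counting noise, whereas the members had 116 or more normalized counts in each group.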
